A study of Mus musculus with 6 samples.

Results

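The genes described here are 9 that code for digestive enzymes of the exocrine pancreas other than its serine proteases and amylases. They are the lipase genes Pnlip, Pnliprp1, Pnliprp2 and Cel, the colipase gene Clps, the carboxypeptidase genes Cpa1 and Cpb1, the ribonuclease gene Rnase1 and the phospholipase A2 gene Pla2g1b. They were chosen by symbol, and all 9 were found among the 24407 genes of the count table. Messenger RNA had been counted in islets of Langerhans, the pancreatic clusters of hormone-secreting cells, of C57BL/6 mice aged 70 weeks and fed regular chow. One group were wild-type mice (WT). The other were lmna LCS mice (LCS), which make lamin C but no lamin A from the Lmna gene. Each group had 3 libraries, and each library was made from the islets of 3 mice pooled together, so replicates are separate pools. The labels give no sex and no batch.

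The exocrine pancreas is built of acinar cells, which store digestive enzymes in zymogen granules and release them toward the gut. Islets lie embedded in this tissue, and their endocrine cells are not known for making these enzymes. Acinar enzyme genes are switched on together by the PTF1 complex, which holds the transcription factors PTF1A and RBPJL and binds an E-box (CANNTG) beside a TTTCCC box.

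Promoter sequences were looked up because the genes are known to share this regulator. RefSeq promoters on GRCm38.p6 were matched for 8 of the 9 genes, all but Clps. In the 250 bases before the start, read on both strands, an E-box within 30 bases of a TTTCCC box was found for 2 of the 8, Cel and Cpa1, and in 5.3% of the 32851 promoters of the table. The letters TATAAA were found before Pnlip alone among the 8, 30 bases before the start, and in 7.6% of all promoters. Such a match is a string of letters, not a measured binding site. The sequences of these 3 are shown 5′ to 3′ along the gene's strand. Capitals mark the E-box and the TTTCCC box (GGGAAA where it lies on the other strand) in Cel and Cpa1, and TATAAA in Pnlip.
Cel, chr2:28563404-28563653, minus strand: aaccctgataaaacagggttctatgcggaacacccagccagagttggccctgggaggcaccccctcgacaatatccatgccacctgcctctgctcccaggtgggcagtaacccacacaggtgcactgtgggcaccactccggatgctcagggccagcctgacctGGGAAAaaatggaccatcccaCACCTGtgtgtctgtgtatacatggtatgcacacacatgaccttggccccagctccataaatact
Cpa1, chr6:30638968-30639217, plus strand: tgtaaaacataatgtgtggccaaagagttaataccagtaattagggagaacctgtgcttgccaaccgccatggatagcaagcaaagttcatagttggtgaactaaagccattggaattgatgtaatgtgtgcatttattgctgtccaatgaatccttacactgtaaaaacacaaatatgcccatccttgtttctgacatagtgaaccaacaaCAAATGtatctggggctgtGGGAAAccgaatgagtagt
Pnlip, chr19:58670115-58670364, plus strand: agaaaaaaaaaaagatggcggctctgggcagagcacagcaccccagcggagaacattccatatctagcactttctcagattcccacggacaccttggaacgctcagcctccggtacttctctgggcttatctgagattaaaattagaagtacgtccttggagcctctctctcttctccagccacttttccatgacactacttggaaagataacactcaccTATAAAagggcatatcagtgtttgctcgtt
The boxes of Cel lie 15 bases apart, with the E-box CACCTG nearer the start. Those of Cpa1 lie 13 bases apart, with the E-box CAAATG farther from it.

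The libraries held 41529670 to 68036676 counts in LCS and 26123654 to 34483948 in WT. The rows Rn45s, Lars2 and Mir6236, called the ribosomal rows here, took 52.3% to 54.1% of them in LCS and 7.64% to 18.5% in WT. Lars2 is a protein-coding gene, and that its reads come from ribosomal RNA was assumed and not checked. Outside these rows 19057533 to 32462401 counts were left in LCS and 23511554 to 28094765 in WT. The share of these rows therefore moves with genotype, as the enzyme genes do. Its part in their values was not tested beyond the fit without these rows given further on. The defining genes of the labelled tissue were abundant: the beta cell list (10 genes, Ins1 and Ins2 among them) summed to 147900 to 172300 CPM in WT and 175300 to 263700 CPM in LCS. CPM are counts divided by the library size after scaling by the trimmed mean of M values (TMM), here and in all that follows. Lmna itself was at 61.9 to 78.9 CPM in LCS and 21.0 to 61.3 CPM in WT, but its counts cover both lamins at once, which leaves the genotype unchecked.

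Of the 9 genes, 7 rose in LCS islets and none fell at an edgeR adjusted p under 0.05, where 2.06% of the 14539 genes tested were called higher and 0.144% lower. These 7 were Pnlip, Pnliprp1, Pnliprp2, Cel, Clps, Cpa1 and Cpb1, with rises of 2.63-fold to 5.12-fold. Rnase1 and Pla2g1b did not pass the test. For the same 7 every LCS library lay above every WT library, which held for 14.6% of all genes tested. The median log2 fold change (LCS over WT) was 1.79 over the 9 genes and 0.01 over all genes tested. All 9 passed the filter on low counts, and all 9 were higher at an unadjusted p under 0.05 (none lower, and none lower with DESeq2). The share of all genes tested that reach an unadjusted p under 0.05 was not worked out. Counts at that threshold, here and for the lists below, therefore have no base to be read against. The number called depended on single libraries and on the test. It was 3 without LCS replicate 3 (where 0.547% of genes were called higher), 4 without LCS replicate 2 (1.77%), 4 with scaling to total counts outside the ribosomal rows (0.846%) and 8 with DESeq2 (6.33%). Together they stayed a small part of the islet RNA, at 0.0219% to 0.0358% of what was counted outside ribosomal rows in the LCS libraries and 0.00693% to 0.0123% in WT. In pooled islets, more acinar cells carried along and more RNA of these genes per cell cannot be told apart.

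**Figure D1:**
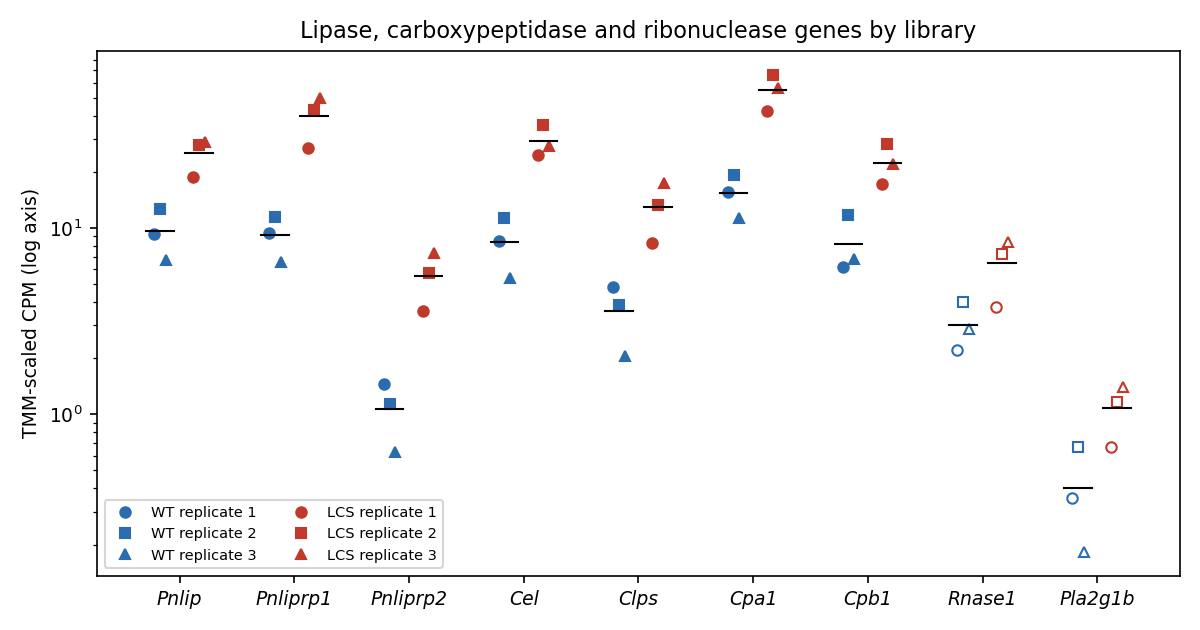
TMM-scaled CPM (log axis) of each gene per library (blue for WT, red for LCS), with a marker shape per replicate number, a black bar at the mean of 3 libraries, and open markers for genes that did not pass the test. Every LCS marker lies above every WT marker except for Rnase1 and Pla2g1b, where the lowest LCS library reaches 3.77 and 0.664 CPM and the highest WT library 3.996 and 0.666 CPM.

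Pancreatic triglyceride lipase, coded by Pnlip (gene 69060), is the main enzyme of fat digestion. Its level was 18.8, 27.9 and 28.7 CPM in the LCS libraries, in the order of their replicate numbers, and 9.31, 12.7 and 6.74 CPM in the WT libraries. The lowest LCS library was 1.48 times the highest WT library. Pnlip rose 2.63-fold (log2 1.39, SE 0.25, edgeR adjusted p = 0.0226), the smallest rise of the 4 lipase genes. The call ended without LCS replicate 2 (edgeR adjusted p = 0.056) or LCS replicate 3 (0.0997).

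Pnliprp1 (gene 18946) codes for a lipase-related protein that is known for having little lipase activity of its own. It stood at 26.8, 43.0 and 50.03 CPM in the LCS libraries and at 9.44, 11.4 and 6.58 CPM in the WT libraries. The groups were well apart, with the lowest LCS library 2.35 times the highest WT library. The rise was 4.37-fold (log2 2.13, SE 0.27, edgeR adjusted p = 0.00522).

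Pnliprp2 (gene 18947), whose product acts on galactolipids and other fats, was the scarcest of the lipase genes. It had 102, 291 and 230 counts in LCS and 70, 46 and 24 counts in WT, or 3.57, 5.71 and 7.33 CPM against 1.46, 1.14 and 0.627 CPM. All LCS libraries lay above all WT libraries. Its rise of 5.12-fold was the largest of the 9 (log2 2.36, SE 0.37, edgeR adjusted p = 0.014). Without LCS replicate 3 it missed the threshold (log2 2.12, edgeR adjusted p = 0.0667).

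Cel (gene 12613) codes for the bile salt dependent carboxyl ester lipase, which splits cholesteryl esters and many other lipid esters. Its LCS libraries had 24.6, 35.5 and 27.4 CPM and its WT libraries 8.5, 11.3 and 5.41 CPM, again without overlap. It rose 3.47-fold (log2 1.79, SE 0.26, edgeR adjusted p = 0.0117).

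Colipase, the small cofactor that anchors pancreatic lipase to bile-coated fat droplets, is coded by Clps (gene 109791). Its values were 8.28, 13.3 and 17.4 CPM in LCS and 4.8, 3.85 and 2.06 CPM in WT. The groups did not overlap, and the lowest LCS library was 1.73 times the highest WT library. The rise was 3.63-fold (log2 1.86, SE 0.34, edgeR adjusted p = 0.0252). Leaving out LCS replicate 2, LCS replicate 3 or WT replicate 2 ended the call (edgeR adjusted p = 0.0565, 0.111 and 0.066).

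The carboxypeptidases trim amino acids from the C-terminal end of peptides that trypsin and its relatives have cut. Cpa1 (gene 109697), for carboxypeptidase A1, which prefers aromatic and aliphatic residues, was the most counted of the 9 genes in each library. It had 1218, 3384 and 1760 counts in LCS and 752, 784 and 431 counts in WT. On the scaled level these were 42.6, 66.4 and 56.1 CPM against 15.6, 19.3 and 11.3 CPM, with no overlap. Cpa1 rose 3.57-fold (log2 1.84, SE 0.23, edgeR adjusted p = 0.00522), and the call was kept in all 16 alternative tests.

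Cpb1 (gene 76703), for carboxypeptidase B1, which removes lysine and arginine, had 17.1, 28.04 and 21.97 CPM in LCS and 6.15, 11.7 and 6.82 CPM in WT. Its groups were separate, with the lowest LCS library 1.46 times the highest WT library. The rise was 2.73-fold (log2 1.45, SE 0.27, edgeR adjusted p = 0.027). This was the least steady of the 7 calls: it was lost in 6 of 16 alternative tests, among them leaving out any LCS library (edgeR adjusted p = 0.0579, 0.0594 and 0.0973) or WT replicate 3 (0.0661).

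Rnase1 (gene 19752) codes for the secreted pancreatic ribonuclease, which is also made by endothelial cells. It had 3.77, 7.23 and 8.42 CPM in LCS and 2.2, 3.996 and 2.87 CPM in WT, so that LCS replicate 1 fell below WT replicate 2. Its log2 fold change of 1.10 (SE 0.33) missed the threshold (edgeR adjusted p = 0.0983). DESeq2 did call it (log2 1.08, adjusted p = 0.0224). The endothelial list (7 genes) summed to 191 to 218 CPM in LCS and 159 to 190 CPM in WT, and its part in the Rnase1 values was not tested.

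Pla2g1b (gene 18778) codes for the pancreatic phospholipase A2, a zymogen that trypsin activates. It was the least counted of the 9, with 19, 59 and 44 counts in LCS and 17, 27 and 7 counts in WT. Scaled, these gave 0.664, 1.16 and 1.40 CPM in LCS and 0.353, 0.666 and 0.183 CPM in WT, so LCS replicate 1 and WT replicate 2 were level. The log2 fold change of 1.42 lies close to that of Pnlip, but its standard error was 0.50 and the test was not passed (edgeR adjusted p = 0.136). At these counts and this spread a difference of that size was not detectable.

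Levels were compared between genes after division by the length of the longest protein-coding GENCODE transcript, as CPM per kb. Cpa1 came first in both groups, at 9.73 ± 2.56 CPM per kb in WT and 34.8 ± 7.56 in LCS (SD, n = 3). In WT it was followed by Pnlip (6.45 ± 2.01 CPM per kb), Clps (5.84 ± 2.27) and Pnliprp1 (5.64 ± 1.49), which did not differ beyond their spread. Cel (4.08 ± 1.43 CPM per kb), Rnase1 (3.05 ± 0.913) and Cpb1 (3.02 ± 1.11) came next, and Pla2g1b (0.719 ± 0.44) and Pnliprp2 (0.682 ± 0.266) last. In LCS Pnliprp1 (24.7 ± 7.37 CPM per kb) and Clps (21.3 ± 7.51) stood before Pnlip (16.9 ± 3.69) and Cel (14.1 ± 2.73), with the library ranges of neighbouring genes overlapping. Cpb1 (8.23 ± 2.01 CPM per kb) and Rnase1 (6.52 ± 2.43) were again lower, and Pnliprp2 (3.52 ± 1.2) and Pla2g1b (1.93 ± 0.676) lowest. The place of Cpb1 rests on a transcript of 2718 nt, the longest of the 9. A shorter model would raise its level per kb.

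The order of the libraries within a genotype was compared between the 9 genes. Among the LCS libraries, replicate 1 was the lowest for 9 of 9 genes, and the highest was replicate 3 for 6 genes and replicate 2 for 3. Among the WT libraries, replicate 3 was the lowest for 7 genes and replicate 2 the highest for 7. The share of all genes tested with these orders was not worked out, so these counts have no base to be read against. Summed, the 9 genes reached 146, 228 and 219 CPM in LCS and 57.8, 76.1 and 42.5 CPM in WT. Even the weakest LCS library thus held 146 CPM against 76.1 CPM in the strongest WT library. The 18 other acinar enzyme genes put the libraries of each genotype in the same order, with sums of 402, 738 and 680 CPM in LCS and 152, 166 and 108 CPM in WT.

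Shares among the 9 were then compared, with no test. Pnlip made up 12.9%, 12.2% and 13.1% of their summed CPM in LCS and 16.1%, 16.7% and 15.8% in WT. Pnliprp1 went the other way, with 18.3%, 18.9% and 22.9% in LCS and 16.3%, 14.9% and 15.5% in WT. For these 2 genes the LCS and WT libraries did not overlap, and for the other 7 they did. Over all genes tested 89.9% did not overlap relative to this sum, which itself was higher in each LCS library. Among the 7 were Cpa1, with 25.6% to 29.1% in LCS and 25.4% to 27.0% in WT, and Cel, with 12.5% to 16.8% and 12.7% to 14.9%.

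Pnlip and Pnliprp1 are next to each other on chromosome 19, with Pnliprp2 after them. The ratio of Pnliprp1 to Pnlip counts, singled out after its values were seen, needs no scaling between libraries. It was 1.42, 1.54 and 1.74 in LCS and 1.01, 0.895 and 0.977 in WT. Each LCS library therefore held more Pnliprp1 than Pnlip counts, while in WT the 2 genes were close to even. Pnliprp2 counts per Pnlip count were 0.189, 0.205 and 0.255 in LCS and 0.156, 0.0893 and 0.093 in WT. Pnliprp2 per Pnliprp1 overlapped between genotypes (0.133 to 0.147 in LCS, 0.0952 to 0.154 in WT).

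**Figure D2:**
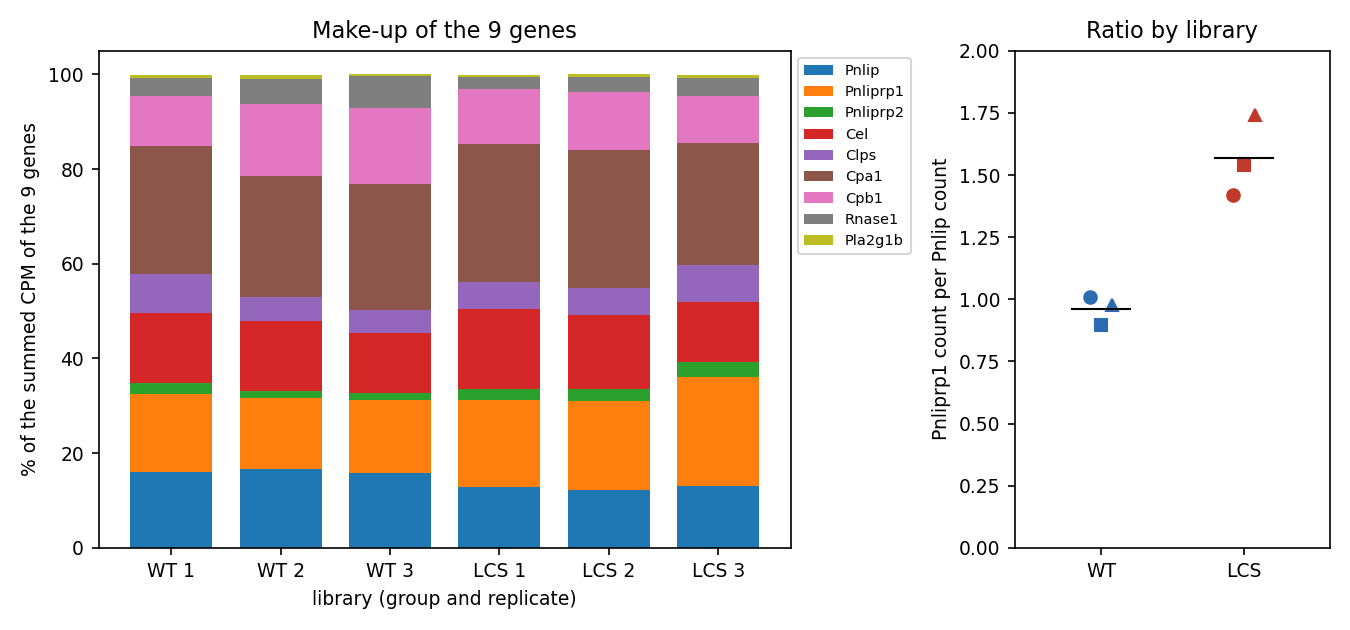
Left, the share of each gene in the summed CPM of the 9 genes (%), stacked for each library. Right, Pnliprp1 counts per Pnlip count in each library with a bar at the mean of 3: the WT libraries lie between 0.895 and 1.01 and the LCS libraries between 1.42 and 1.74.

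The other acinar enzymes were compared next. They were 18 genes, most of them for trypsinogens, chymotrypsinogens, elastases and amylases, of which 12 could be tested. All 12 tested were called higher (2.06% of all genes tested), with a median log2 fold change of 2.17 against 1.79 for the 9 genes. The count was 5 without LCS replicate 3 (0.547% of all genes), 7 without LCS replicate 2 (1.77%) and 5 with a length offset (0.278%). The 9 genes summed to 36.4, 30.9 and 32.2 CPM per 100 CPM of the other enzymes in LCS and 38.1, 45.8 and 39.5 in WT. As a log2 ratio to that sum, Pnlip was at -4.57 ± 0.155 in LCS and -3.91 ± 0.176 in WT, and Rnase1 at -6.58 ± 0.215 and -5.57 ± 0.469 (SD, n = 3). These 2 did not overlap between genotypes, whereas the other 7 did. Over all genes tested 94.1% did not overlap in this ratio, since its denominator rose.

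Examples of these other enzymes are Try5, a trypsinogen (6.59-fold, edgeR adjusted p = 0.000589), and Cela1, an elastase (4.15-fold, 0.00123). The 6 enzyme genes that could not be tested (Amy2a5, Ctrc, Dnase1, Prss1, Prss3 and Try10) had at most 24 counts in a library, and Amy2a5 was listed at 0 in all. Trypsinogen and amylase genes have near-identical copies, so the counts of single copies are uncertain.

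Genes for proteins of the zymogen granule were a list of 10, of which 9 were in the table and 6 could be tested. Among these, 4 were called higher (2.06% of all genes tested) and none lower (0.144%), with a median log2 fold change of 1.96. The count was 1 without LCS replicate 2 (1.77% of all genes higher), without LCS replicate 3 (0.547%) or with a length offset (0.278%). It was 2 without WT replicate 2 (0.748%) or WT replicate 3 (0.931%). Gp2, the main granule membrane glycoprotein, rose 5.06-fold (edgeR adjusted p = 0.00225), and Sycn, coding for syncollin, rose 4.51-fold (0.0199). Among the genes too scarce to test, Serpini2 went the other way, with 0, 2 and 0 counts in LCS and 6, 6 and 2 in WT. Aqp12 had 5, 6 and 0 counts in LCS and 0 in each WT library. Aqp8 had 0, 1 and 0 counts in LCS and 0 in each WT library.

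Of 5 acinar transcription factor genes 3 could be tested and none was called. At an unadjusted p under 0.05 there were also 0 higher and 0 lower, and DESeq2 called 0. Gata4 and Nr5a2 were scarce, with means of 0.606 and 0.678 CPM in LCS and 0.528 and 0.757 CPM in WT. Their standard errors were 0.47 and 0.43, so a moderate change in them could have been missed. Bhlha15, coding for MIST1, was at 48.1 ± 8.0 CPM in LCS and 57.8 ± 8.16 CPM in WT (SD, n = 3; log2 -0.27, SE 0.17, edgeR adjusted p = 0.368), and other secretory cells express it too. Ptf1a, the defining factor of the PTF1 complex, had 5, 11 and 5 counts in LCS and 0, 2 and 0 counts in WT. Each LCS library lay above each WT library, as for 14.6% of all genes tested, but the counts were too few for the filter. With no filter on low counts all 5 factor genes were tested, and none was called. Rbpjl had 0 to 4 counts per library.

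Relatives of the 9 genes that belong to other cells were taken as 4 lists. Of 13 lipase genes 10 could be tested, with a median log2 fold change of 0.14. Of 14 carboxypeptidase genes 9 could be tested (median 0.13), of 15 RNase A relatives with the inhibitor gene Rnh1 3 (median 0.28), and of 17 phospholipase A2 genes with their receptor 11 (median 0.12). None of the tested genes of these 4 lists was called in either direction by edgeR with all 6 libraries and the filter on low counts. Some alternatives called a few, each higher. Without WT replicate 1 (12.5% of all genes called higher) 1, 2, 1 and 0 genes of the 4 lists were called. With no filter on low counts 1 carboxypeptidase gene was called (2.95%). Without LCS replicate 2 it was 1 gene of the phospholipase A2 list (1.77%). At an unadjusted p under 0.05 there were 0, 1, 1 and 2 higher and none lower. These counts were not compared with the share of all genes, so no excess can be read from them. DESeq2 called Cpb2 and Pla2g12a higher (adjusted p = 0.00865 and 0.0494). Lipoprotein lipase (Lpl) was at 180 ± 50.8 CPM in LCS and 142 ± 3.43 CPM in WT, and Pnpla2, the adipose triglyceride lipase gene, at 21.6 ± 2.53 and 16.7 ± 5.08 CPM (SD, n = 3; edgeR adjusted p = 0.32 and 0.316). Cpb2, a carboxypeptidase known from liver and plasma, had the smallest p of its list (log2 1.33, SE 0.36, edgeR adjusted p = 0.0794). Rnh1, which blocks RNase A enzymes, was at 88.6 ± 11.7 CPM in LCS and 73.1 ± 1.85 CPM in WT (log2 0.28, edgeR adjusted p = 0.267).

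**Figure D3:**
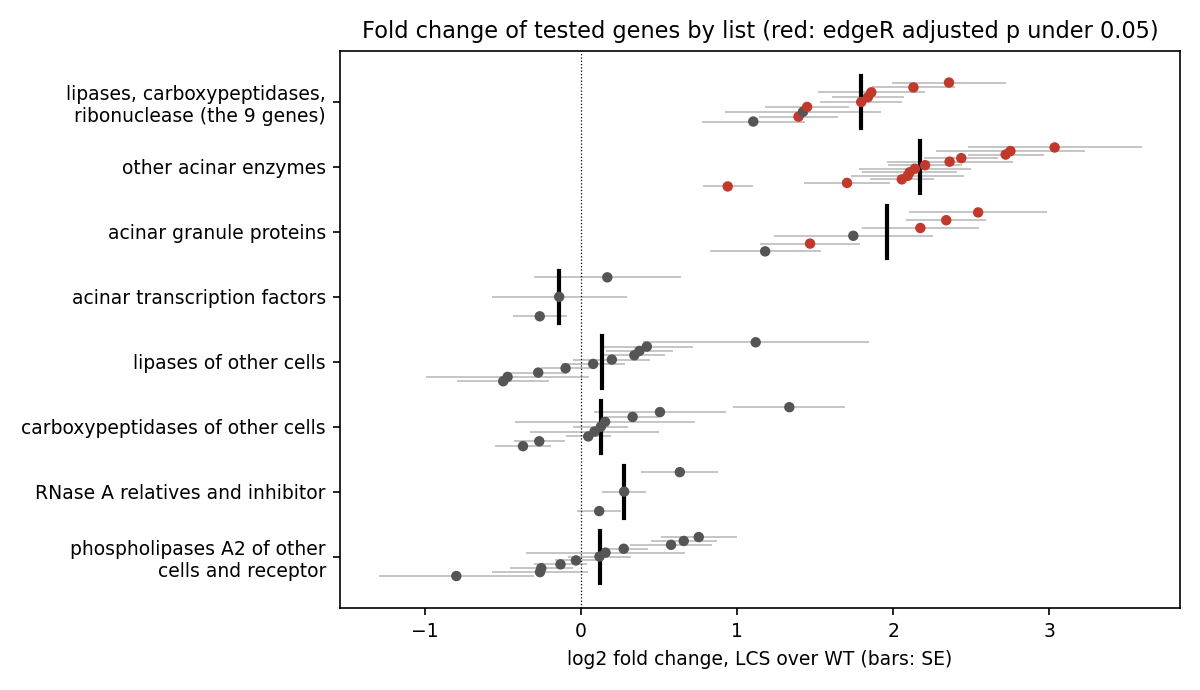
Log2 fold change (LCS over WT) of each tested gene with its standard error, grouped by list, red where the edgeR adjusted p was under 0.05, with the list median as a black bar. The medians are 1.79 for the 9 genes, 2.17 and 1.96 for the other acinar enzymes and granule proteins, and -0.14 to 0.28 for the other 5 lists.

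Markers of other cells were summed per library to see which moved along. Duct cell markers (9 genes) summed to 620 to 743 CPM in LCS and 445 to 741 CPM in WT. They overlapped through WT replicate 1 alone, with 445 and 536 CPM in the other WT libraries. Of the duct genes, Krt7 was higher and Prom1 lower at an unadjusted p under 0.05 (edgeR adjusted p = 0.201 and 0.102). Prom1 was lower in each LCS library (74.2 to 91.0 against 108 to 119 CPM), and DESeq2 called it (adjusted p = 0.033). Stellate and mesenchymal markers (9 genes) summed to 38.6 to 67.3 and 32.7 to 97.3 CPM, overlapping too. Their genes were mixed, with a median log2 fold change of -0.225. Acta2 and Des were higher at an unadjusted p under 0.05 and none was lower (edgeR adjusted p = 0.142 and 0.178). Macrophage markers (7 genes) gave 77.0 to 94.3 CPM in LCS and 51.2 to 63.9 CPM in WT, with the lysozyme gene Lyz2 called higher (2.79-fold, edgeR adjusted p = 0.0142), a call that ended without LCS replicate 1 and with a length offset. Adgre1, another macrophage marker, was at 0.861 to 1.65 CPM in LCS and 1.8 to 2.06 CPM in WT. It was lower in each LCS library (log2 -0.62, SE 0.31, edgeR adjusted p = 0.257). DESeq2 called C1qa higher besides Lyz2 (adjusted p = 0.0125 for C1qa). B and plasma cell markers (6 genes) gave 29.6 to 69.6 CPM in LCS and 8.91 to 25.9 CPM in WT, and none of the 6 passed the edgeR test, with 3 higher at an unadjusted p under 0.05 and Cd79b and Mzb1 called by DESeq2 (adjusted p = 0.023 and 0.0402). The non-beta endocrine list (9 genes) gave 20970 to 28740 CPM in LCS and 14770 to 17540 CPM in WT. An unadjusted p under 0.05 was reached by 6 of these 9 genes, each higher in LCS, and 4 passed in DESeq2 (Ppy, Pyy, Ghrl and Irx1). In edgeR 1 was called, Ppy, which codes for pancreatic polypeptide (3.63-fold higher, adjusted p = 0.0172), a call that ended without LCS replicate 3 and with a length offset. Pyy, for peptide YY, had a fold change of 3.54 and Sst, for somatostatin, one of 2.98, neither past the edgeR threshold (adjusted p = 0.0561 and 0.103). In the beta cell list edgeR called none, and DESeq2 called Ins2 higher and Slc2a2 lower (adjusted p = 0.0315 and 0.044). Without WT replicate 1 edgeR called 2 beta cell genes higher and 3 lower. It then also called 3 genes of the B and plasma list and 5 of the non-beta endocrine list higher. In that fit 12.5% of all genes were called higher, and 1142 of 14861 lower. Adipocyte markers (4 genes) summed to at most 0.606 CPM in a library, and T cell markers (3 genes) to at most 2.2 CPM. The sums of the macrophage, B and plasma cell, endothelial and endocrine lists were thus also higher in each LCS library, by a ratio of means of 1.13 to 3.07, against 3.36 for the 9 genes. Their part in the enzyme values was not tested.

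**Figure D4:**
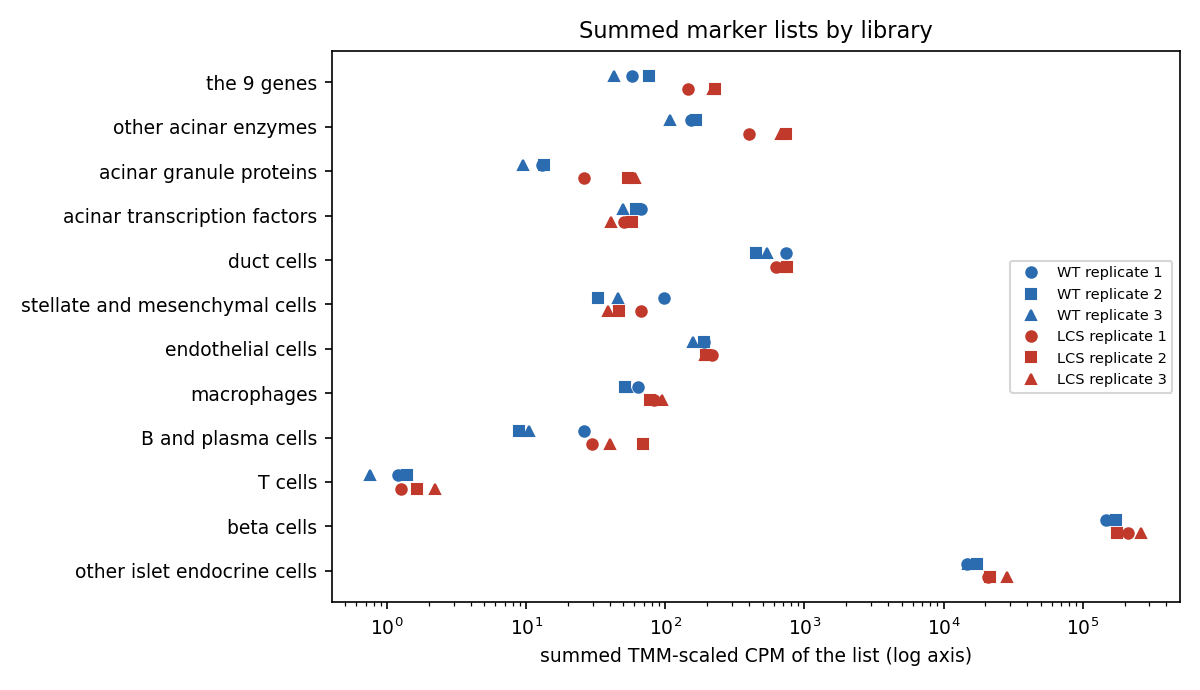
Summed TMM-scaled CPM (log axis) of the 9 genes and of 11 marker lists per library (blue for WT, red for LCS), with a marker shape per replicate number. The 9 genes lie at 42.5 to 76.1 CPM in WT and 146 to 228 CPM in LCS. Duct and stellate lists overlap between the groups, the duct list through WT replicate 1 alone.

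Transcript length moved with the fold change across the genes tested. The median log2 fold change of protein-coding genes was 0.46 below 500 nt, 0.17 from 1000 to 2000 nt and -0.24 from 4000 nt on. With a median length of all its coding transcripts, Clps and Pla2g1b fall in the shortest class, Rnase1 in the next, Cpa1, Pnlip, Pnliprp1 and Pnliprp2 in the class of 1000 to 2000 nt, and Cel and Cpb1 between 2000 and 4000 nt, where the median was -0.06. With an offset for length the 9 genes kept their direction and a median of 1.50. Of them 4 were then called, Pnliprp1, Pnliprp2, Cel and Cpa1, where 0.278% of genes were called higher. Pnlip, Clps and Cpb1 lost their calls, at log2 fold changes of 1.15, 1.50 and 1.50 against 1.39, 1.86 and 1.45 without the offset (edgeR adjusted p = 0.0858, 0.084 and 0.0591). Without the ribosomal rows 7 of the 9 were called, where 2.08% of genes were, and their median was 1.79.

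**Figure D5:**
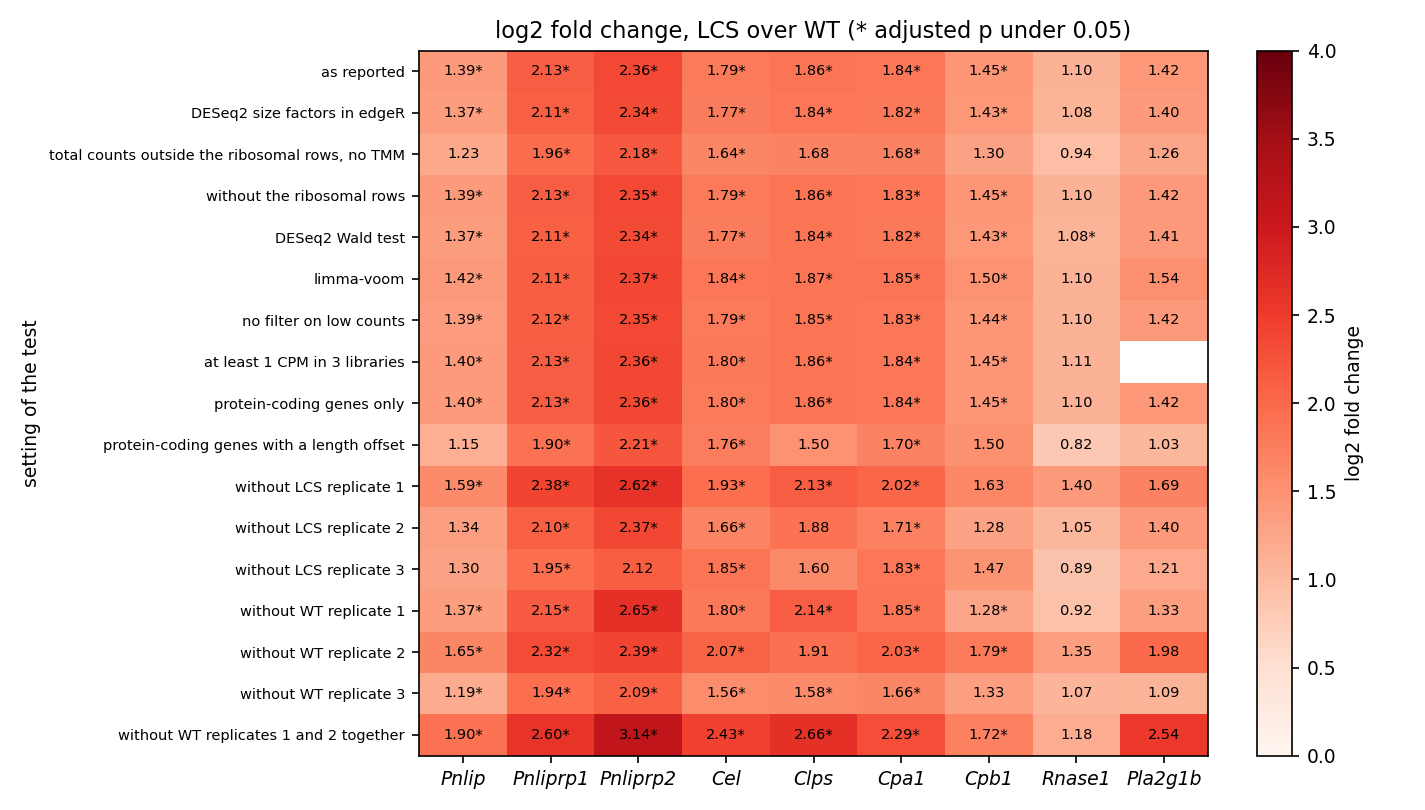
Log2 fold change (LCS over WT) of each gene under each setting of the test, with the color scale at the right and a star where the adjusted p was under 0.05. All values lie above 0, from 0.82 for Rnase1 with a length offset to 3.14 for Pnliprp2 without WT replicates 1 and 2, and the empty cell is Pla2g1b, which the filter at 1 CPM removed.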

How the data were processed

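Islet RNA was sequenced from 3 LCS and 3 WT pools of 3 mice. The authors deposited raw whole-number counts per gene, not normalised. Per the submitters' processing notes, TopHat2 2.1.1 and Bowtie2 2.2.9, HTSeq 0.9.0, FastQC, bcl2fastq 2.20 and the mm9 build were used. Annotation and strand setting were not given in the sources used here. Overlapping genes may share reads; in RefSeq only Clps overlaps another gene (Mir6969). Groups are those of the labels, with replicates numbered by accession. The test was edgeR 4.0.16 in R 4.3.3 (filterByExpr, TMM, quasi-likelihood F-test, genotype as the only term, all 6 libraries), with Benjamini-Hochberg adjustment over 14539 genes and a threshold of 0.05. Standard errors are on the log2 scale. The edgeR fit was tested on simulated counts with a common dispersion for all genes and no trend with length. The alternatives and the other steps were not tested in this way. Alternatives used DESeq2 1.42.0, limma 3.58.1, other scalings and filters, a loess offset (span 0.5) for the median GENCODE M21 transcript length, and left-out libraries. Genes named were the 9, Lmna, up to 4 of each list with the smallest p, and 5 with the most alike profile. One listed gene is not reported here by name. The genes, lists and rules were chosen with earlier results of these data known. Promoters came from RefSeq (GRCm38.p6), which differs from mm9, so no other coordinates are given.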

Additional observations from a re-analysis of the deposited data

How the results depend on the processing

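The 9 genes were tested under 16 alternatives, 1 of them (protein-coding genes only) chosen after seeing the data. Over 143 pairs of gene and alternative the direction never changed; 16 calls were lost and 1 gained. The number of the 9 called higher was 7, and it was 4 with total counts outside the ribosomal rows and no TMM, 4 with the length offset, and 3 to 7 when each library was left out (lowest without LCS replicate 3); it was 4 without LCS replicate 2. None was called lower in any. Pnliprp1, Cel and Cpa1 were called in every alternative, at adjusted p of at most 0.0244, 0.0419 and 0.0217. The scaling with no TMM moved the median of all genes from 0.01 to -0.15, and the median of the 9 genes above it was 1.78 before and 1.79 after.

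Over all genes, 300 were higher and 21 lower. The counts of higher genes were 123 with no TMM, 920 with DESeq2, 560 with no filter, 38 with the length offset, 884 without WT replicates 1 and 2 together (which leaves 1 WT library, assumed to vary like the LCS libraries), and 81 to 1857 when each library was left out. Those of lower genes were 526 with DESeq2, 126 with no filter, 3 with the length offset, 331 without WT replicates 1 and 2, and 1 to 1142 when each library was left out. The cause was not tested. No paired analysis was possible because the labels give no replicate numbers shared between the groups. The counts of Pla2g1b limit what can be seen of it.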

Other observations

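Genes beside the 9 on their chromosomes, taken by position in RefSeq and not by value, were looked at for the same change. Of 14 such protein-coding neighbours outside the 9, 7 could be tested and none passed the test: Cep41, Cpa5, Gtf3c5, Lhfpl5, Msi1, Ralgds and Sirt4, with log2 fold changes of -0.27 to 0.61 and edgeR adjusted p of 0.288 to 0.914. The count was also 0 at an unadjusted p under 0.05 and with DESeq2. Lhfpl5, next to Clps, was the highest at 0.61 (SE 0.33). The genes at either end of the Pnlip, Pnliprp1 and Pnliprp2 row, Ccdc172 and 1700019N19Rik, had 0 and 2 counts over all 6 libraries. Rnase6, next to Rnase1 and too scarce for the filter, had 6, 22 and 12 counts in LCS and 5, 1 and 2 counts in WT. In CPM each LCS library of Rnase6 lay above each WT library, as for 14.6% of all genes tested.

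Profiles over the 6 libraries (log2 CPM centred on each gene's mean) were compared with the mean profile of the 9. Candidates were 9405 genes outside the acinar lists with a mean of at least 5 CPM in LCS, predicted or unnamed loci left out. The 5 closest were Ppy, Pdcd5, Zswim7, Pttg1 and Rps26, with root mean square differences of 0.25, 0.33, 0.34, 0.34 and 0.35. The 9 genes themselves lay 0.13 to 0.45 from that mean profile. Each of them helps to form it, so these distances cannot be set against those of the 5. Ppy, the pancreatic polypeptide gene, had 1630, 2430 and 3380 CPM in LCS and 526, 942 and 582 CPM in WT. The likeness includes the step between the genotypes, so the difference of these 5 genes between LCS and WT is part of how they were chosen and is no finding.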
